A study of Mus musculus with 4 samples.

Results

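The kallikrein-related proteases of skin and their inhibitor Spink5 were followed in primary tail skin keratinocytes of C57BL/6 congenic mice with a floxed Prdm1 gene. Members were the probe sets whose platform annotation names Klk5, Klk6, Klk7, Klk8, Klk10, Klk11, Klk13 or Spink5. Of these 8 genes, 5 had a probe set (Klk6, Klk7, Klk8, Klk10 and Klk11), each read by 1 probe set that names no other gene, out of 12393 genes represented on the array. Klk5, Klk13 and Spink5 were not analysed here. All 5 measured kallikreins were higher on both arrays of 4-hydroxytamoxifen (4OHT) treated cells than on both arrays of solvent-treated cells, with or without the CreER recombinase. The same held for 17.3% of all measured genes. None of the 5 passed limma's test of the drug effect over both genotypes after adjustment over all measured genes (adjusted p = 0.89 each). No other measured gene passed it either, so this result is not particular to the kallikreins. Klk6 stood furthest apart in the cells that had both CreER and 4OHT, at 2.72-fold above the next array, and Klk8 followed at 1.51-fold. Without 4OHT, Klk6 was already 1.65-fold higher in cells with CreER than in cells without it (rank 14 of 7461 measured genes). The drug effect on Klk6 was larger with CreER than without it by 0.73 on the log2 scale, which was only rank 534.

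The RNA came from 4 groups of 1 Affymetrix Mouse Expression Array 430A each. Every group carried the floxed Prdm1 allele, grew in serum-free medium on collagen-coated plates and was collected on day 5. CKO 4OHT cells had CreER and received 4OHT from day 1 to day 3, and control 4OHT cells received the same drug without CreER. CKO EtOH and control EtOH cells received the solvent ethanol, with and without CreER. The product of Prdm1 is Blimp-1, a transcriptional repressor found in the upper epidermis, and CreER is a Cre recombinase that acts in the nucleus once 4OHT binds its estrogen receptor domain. CKO and control cells came from different mice, and neither the promoter that drives CreER nor the number of mice behind a culture is given in the sources used here. With 1 array per group, single pairs of arrays and the difference of the drug effects leave no estimate of error and no test. The drug against its solvent over both genotypes (2 arrays against 2) could be fitted, and that test is given after the pairs. The number of arrays limits the precision of every value. A gene is called higher or lower when 2 arrays differ at least 2-fold, which is 1 on the log2 scale, and a count of members is read against the share of all 7461 measured genes called the same way.

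Kallikreins are secreted serine proteases that are made as inactive precursors and gain activity when a short propeptide is cut off. In the epidermis the granular layer releases them into the space between the outermost cells, where they cut the corneodesmosome proteins that hold the cornified layer together and so permit shedding. Spink5 encodes LEKTI, a many-domain inhibitor that binds kallikreins until the acid pH near the surface releases them, and its loss in human causes Netherton syndrome. Active kallikreins can also cut the receptor F2rl1 (PAR2) on keratinocytes, which is linked to release of the cytokine Tslp.

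The labels were checked first. Prdm1 had an intensity of 6.43 in CKO 4OHT and 52.4 in control 4OHT, beside 17.0 in CKO EtOH and 20.7 in control EtOH. Esr1, read as a check of CreER, had intensities of 44.4 and 54.3 in CKO 4OHT and CKO EtOH against 18.2 and 11.3 in control 4OHT and control EtOH. Prdm1 was lowest in the group labelled as CKO with 4OHT, and Esr1 was higher in both groups labelled as carrying CreER. Prdm1 in both CKO groups and Esr1 in both control groups were under 20.04, the median of the whole table. Of 11 keratinocyte markers, 10 were measured, and the summed intensity of the 11 lay between 15451 and 16762 on the 4 arrays. Krt1, a keratin of the first suprabasal layers, was the 1 measured marker of that list that differed 2-fold between any arrays, at 21.8 in CKO 4OHT against 136 to 246 elsewhere. Of 8 Langerhans cell and macrophage, 5 endothelial and 6 glandular markers none was measured, and 1 of 9 fibroblast, 1 of 7 T cell and 4 of 8 melanocyte markers were, none above 40.3. The summed melanocyte markers were at 155 in CKO 4OHT and between 127 and 138 elsewhere. Summed sebocyte markers (5 of 8 measured) were at 1805 in CKO 4OHT and between 1655 and 1811 elsewhere. Of these, Mgst1 was at 197 in CKO 4OHT against 466 to 579. Cidea was at 56.4 in CKO 4OHT and 52.6 in control 4OHT, beside 26.7 in CKO EtOH and 17.0 in control EtOH. Both its 4OHT values thus lay above both its EtOH values, as for the kallikreins and for 17.3% of measured genes. The other measured sebocyte markers, Mgst1, Scd1, Plin2 and Fasn, did not have this order. The part of Krt1, melanocyte and sebocyte genes in the kallikrein values was not tested. In such bulk RNA, fewer cells of a type and less RNA per cell cannot be told apart.

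The 7 kallikrein members lie in a single run of 40 annotated genes on mouse chromosome 7, of which 26 are protein coding. Klk11, Klk10, Klk8, Klk7 and Klk6 follow each other there, with only Klk9, not analysed here, between Klk10 and Klk8. All 5 were higher on both 4OHT arrays than on both EtOH arrays, as were 17.3% of measured genes, though their patterns differed otherwise. The bases before the first annotated base of each are shown. They are from RefSeq on GRCm38.p6, plus strand, 5′ to 3′, in lower case, with matches to the motifs described after them in capitals. The lines of Klk6 and Klk8 are shorter because another annotated transcript of each begins inside the window.
Klk6, chr7:43824294-43824437: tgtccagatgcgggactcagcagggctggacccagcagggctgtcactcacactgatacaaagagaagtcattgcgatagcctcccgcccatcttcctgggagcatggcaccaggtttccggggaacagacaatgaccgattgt
Klk8, chr7:43797327-43797531: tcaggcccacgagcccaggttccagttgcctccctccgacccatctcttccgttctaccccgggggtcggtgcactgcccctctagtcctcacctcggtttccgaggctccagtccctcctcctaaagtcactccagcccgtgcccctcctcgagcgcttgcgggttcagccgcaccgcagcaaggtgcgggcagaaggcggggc
Klk7, chr7:43811044-43811293: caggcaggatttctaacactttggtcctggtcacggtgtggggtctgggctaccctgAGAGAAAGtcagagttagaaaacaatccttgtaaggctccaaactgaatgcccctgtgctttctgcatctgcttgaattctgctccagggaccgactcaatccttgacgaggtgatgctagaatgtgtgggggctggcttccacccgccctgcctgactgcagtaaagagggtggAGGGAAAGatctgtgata
Klk10, chr7:43780804-43781053: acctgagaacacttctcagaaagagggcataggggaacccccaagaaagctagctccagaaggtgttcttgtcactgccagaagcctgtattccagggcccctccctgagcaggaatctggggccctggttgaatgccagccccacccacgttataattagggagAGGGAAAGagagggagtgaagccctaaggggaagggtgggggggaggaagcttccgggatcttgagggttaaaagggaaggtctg
Klk11, chr7:43774367-43774616: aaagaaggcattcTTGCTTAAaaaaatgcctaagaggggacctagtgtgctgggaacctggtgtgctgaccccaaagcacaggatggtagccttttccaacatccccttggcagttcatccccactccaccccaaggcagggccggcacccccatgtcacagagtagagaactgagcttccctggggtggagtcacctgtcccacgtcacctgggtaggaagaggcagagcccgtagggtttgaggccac

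Windows of 250 bases before each annotated start site were searched on both strands for 5 motifs, in 9 windows of the 7 kallikrein members and in 32851 windows of all genes. The letters AGNGAAAG, the core of the Blimp-1 motif, were found in 2 kallikrein windows, against 7.30% of all windows. Klk7 held them at positions -193 and -18 from its start site and Klk10 at -85. TTGCNNAA, a C/EBP motif, was found in both windows of Klk11 and in 9.56% of all windows. The AP-1 motif TGANTCA, the Grainyhead-like motif AACNGGTT and the TATA box TATAAA had no match in these 9 windows, and 6.75%, 1.79% and 12.4% of all windows held them. No match overlapped a match to another motif. Klk6 and Klk8, which differed most between arrays, had no match to any of the 5 motifs, which says only that these letters are not in the windows searched. A match is a description of letters and not a binding site.

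Klk6 (neurosin), a trypsin-like protease also known from brain and spinal cord, had an RMA intensity of 399.9 in CKO 4OHT and 147 in control 4OHT, beside 106 in CKO EtOH and 64.5 in control EtOH. The 4 values were all apart, and the highest was 6.20 times the lowest. Only 26 of the 7461 measured genes had a wider range over the arrays, since Klk6 was rank 27.

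Klk8 (neuropsin), a trypsin-like protease of the epidermis and hippocampus, had intensities of 983 in CKO 4OHT and 651 in control 4OHT, beside 289 in CKO EtOH and 279 in control EtOH. Both solvent arrays were close together and both drug arrays were well above them. The range was 3.53-fold, rank 80 of the measured genes.

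Klk7, the chymotrypsin-like enzyme of the cornified layer, had intensities of 1592 in CKO 4OHT and 1343 in control 4OHT, beside 792 in CKO EtOH and 648 in control EtOH. Its probe set lay between the 97.2 and 99.0 percentile of the arrays. The drug arrays lay above the solvent arrays, and within each pair CKO was somewhat above control.

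Klk10, whose human counterpart was described as lost in breast cancer cells, had intensities of 141 in CKO 4OHT and 105 in control 4OHT, beside 64.7 in CKO EtOH and 55.6 in control EtOH. The order of the groups was that of Klk6, Klk7 and Klk8, over a 2.54-fold range. Klk11, a trypsin-like serine protease of skin and brain, had intensities of 44.6 in CKO 4OHT and 52.0 in control 4OHT, beside 29.9 in CKO EtOH and 25.5 in control EtOH. It alone of the 5 was highest in control 4OHT. It was also the dimmest, at the 54.5 to 68.3 percentile of the arrays, and its range of 2.04-fold was only just past 2-fold.

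All 5 members spanned at least 2-fold over the 4 arrays, as did 6.07% of measured genes. Both 4OHT arrays lay above both EtOH arrays for 5 of 5 members, against 17.3% of measured genes. CKO 4OHT was the highest array for 4 of 5 members, against 31.6% of measured genes, and control EtOH was the lowest for all 5, as it was for 20.5% of measured genes. Klk6 alone was at least 2-fold above each other array in CKO 4OHT, as were 0.751% of measured genes.

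**Figure D1:**
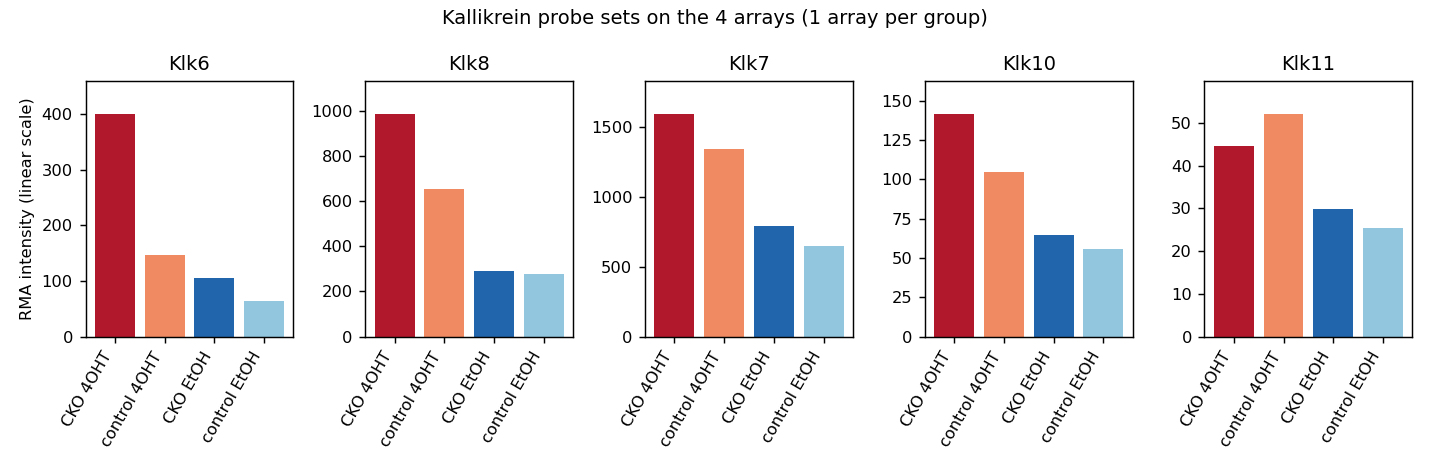
RMA intensity on a linear scale (vertical axes, from 0, scaled per gene) of 5 kallikrein probe sets on the arrays of CKO 4OHT, control 4OHT, CKO EtOH and control EtOH cells. Each bar is 1 array without error bars. Both 4OHT bars stand above both EtOH bars in every panel, and Klk6 reaches 399.9 in CKO 4OHT against 64.5 to 147 elsewhere.

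The first comparison asked what 4OHT did, relative to its solvent, where CreER was present. Klk6, Klk8, Klk10 and Klk7 were higher in CKO 4OHT than in CKO EtOH and Klk11 was not past the threshold, so that 4 of 5 members were called higher, against 1.78% of measured genes. None was lower, against 1.86%. The log2 difference was 1.91 for Klk6 (3.76-fold, rank 18 from the top of 7461 genes) and 1.77 for Klk8 (3.41-fold, rank 24). It was 1.13 for Klk10 (2.19-fold, rank 107) and 1.01 for Klk7, which at 2.01-fold was barely past the threshold. Klk11 differed by 0.58. The median of the 5 was 1.13, beside 0.01 over all measured genes. With log2(value + 16), which shrinks differences of dim probe sets, 2 of 5 members were called higher, against 1.07% of measured genes in that setting. Klk10 at 0.96 and Klk7 at 0.99 were no longer among them. CreER and its ligand were both present on the CKO 4OHT side only, so the effect of the drug itself and that of Cre activity cannot be told apart in this pair.

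Setting CKO 4OHT beside control 4OHT held the drug constant and differed in CreER and in the mice. Klk6 was the 1 member of 5 called higher, against 1.45% of measured genes, and none was lower, against 2.24%. Its difference was 1.45 on the log2 scale (rank 40). Klk8 differed by 0.60 (rank 472), Klk10 by 0.43 and Klk7 by 0.25, which lie inside the central 95% of measured genes (-0.95 to 0.82). Klk11 was at -0.22, the 1 member with a negative sign. The median of the members was 0.43, beside 0.01 over all measured genes. This pair and the one before share the CKO 4OHT array.

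Control 4OHT against control EtOH shows the drug in cells that lack CreER. Klk8, Klk6, Klk7 and Klk11 were higher, so 4 of 5 members were called, against 1.27% of measured genes, and none was lower, against 0.241%. The differences were close to each other, at 1.22 for Klk8, 1.19 for Klk6, 1.05 for Klk7, 1.03 for Klk11 and 0.91 for Klk10. Their median was 1.05, beside -0.04 over all measured genes. All 5 lay above the central 95% of measured genes, which ended at 0.71, and the lowest of them, Klk10, was rank 111 of 7461. With log2(value + 16) 3 of 5 were called higher, against 0.844% of measured genes in that setting, with Klk11 at 0.71. Prdm1 itself was 1.34 log2 higher in the same pair.

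**Figure D2:**
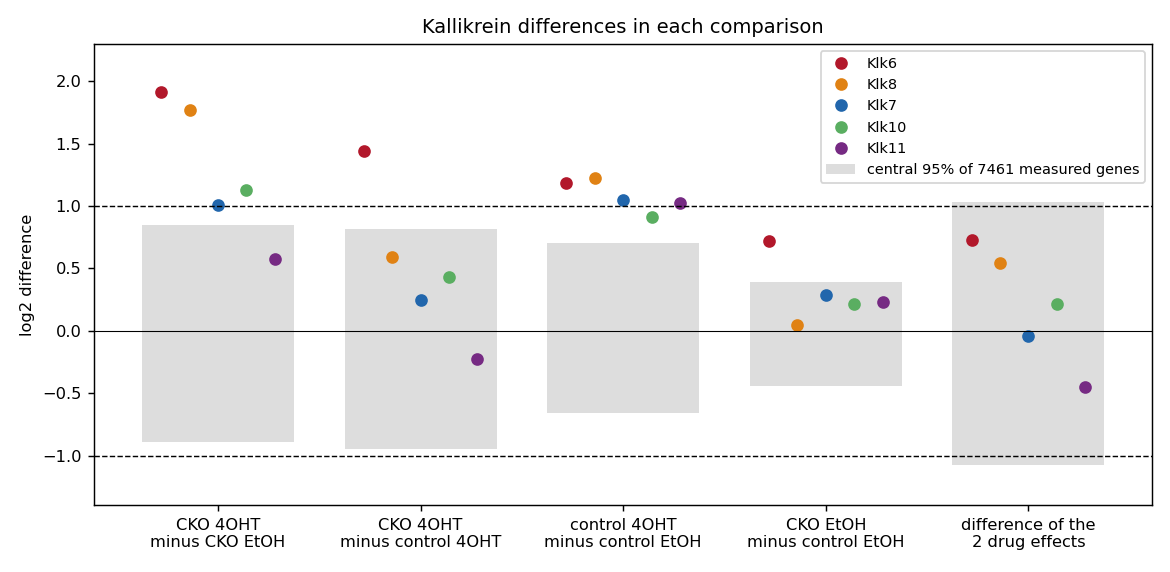
Log2 difference (vertical axis) of the 5 kallikreins in each of 5 comparisons, 1 array per group, with dashed lines at 2-fold and grey bars for the central 95% of 7461 measured genes. The 5 points lie together between 0.91 and 1.22 for control 4OHT minus control EtOH and spread from 0.58 to 1.91 for CKO 4OHT minus CKO EtOH.

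These 2 drug pairs share no array, although RMA was run on the arrays together. Klk6, Klk7 and Klk8 were at least 2-fold higher with 4OHT in both genotypes, which is 3 of 5 members against 0.322% of measured genes (24 genes). This count was 2 of 5 under quantile normalization and with log2(value + 16), in both cases with Klk7 at 0.99 in CKO cells. The matching share of all measured genes was not counted in these settings. At a 1.5-fold threshold it was 4 of 5, against 1.07% of measured genes. By pair, at least 1.5-fold higher were 4 of 5 in CKO 4OHT against CKO EtOH (5.67% of measured genes), 2 of 5 in CKO 4OHT against control 4OHT (6.65%), 5 of 5 in control 4OHT against control EtOH (3.95%) and 1 of 5 in CKO EtOH against control EtOH (0.59%), and 1 of 5 was for the difference of the drug effects (11.1%). Klk7 was nearly equal in the pairs, at 1.01 in CKO cells and 1.05 in control cells. Klk6 was at 1.91 in CKO cells and 1.19 in control cells, and Klk8 at 1.77 and 1.22. Klk11 ran the other way, at 0.58 in CKO cells and 1.03 in control cells.

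The drug effect averaged over both genotypes was tested with limma across all 7461 measured genes, with genotype as a block. This fit was added after the pairs had been seen, and it counts any difference between the genotypes' drug effects as error. Nothing in the labels says that the 2 arrays of a genotype came from separate animals, so the p-values measure only the spread between these arrays. The mean difference was 1.55 ± 0.24 for Klk6, 1.5 ± 0.20 for Klk8, 1.03 ± 0.14 for Klk7, 1.02 ± 0.16 for Klk10 and 0.80 ± 0.19 for Klk11 (SE from limma, log2 scale). Each member was higher with 4OHT in both genotypes, as were 22.8% of measured genes. No member passed after Benjamini-Hochberg adjustment in limma (adjusted p = 0.89 for each of the 5), and no gene of the whole table did, the smallest adjusted p being 0.84. At an unadjusted p under 0.05 limma had all 5 members among 194 higher genes (2.6%) and 147 lower ones. Without the genotype block the 5 adjusted p-values in limma lay between 0.47 and 0.69, again with no gene past 0.05, and with all 5 members among 276 higher genes (3.7%) and 262 lower ones at an unadjusted p under 0.05.

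The difference of those drug effects, CKO minus control, was 0.73 for Klk6, 0.55 for Klk8, 0.22 for Klk10, -0.04 for Klk7 and -0.45 for Klk11. No member reached 2-fold in either direction, where 2.75% of measured genes were higher and 2.90% lower. All 5 values lay inside the central 95% of measured genes, from -1.08 to 1.03. The median of the members was 0.22, beside 0.04 for all measured genes.

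CKO EtOH against control EtOH compared cells with and without CreER that had not received the inducer. No member of 5 reached 2-fold, where 0.0536% of measured genes were higher and 0% lower. Klk6 was nevertheless at 0.72 (1.65-fold), rank 14 from the top of 7461 genes, in a pair whose central 95% ended at 0.39. Klk7 was at 0.29, Klk11 at 0.23, Klk10 at 0.22 and Klk8 at 0.05, all inside it. The median of the 5 was 0.23, beside -0.03 over all measured genes. The mice differed in this pair too, so CreER and animal cannot be told apart.

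The other genes of the kallikrein run were dim or nearly level across the arrays. Of 15 genes in the run with a probe set, 10 were no members, and 9 of these were under the level minimum of 20.04 on all arrays. These were Klk4, an enamel protease, Klk1, the tissue kallikrein of glands, and 7 Klk1b genes, between 3.81 and 8.10 throughout. Klk1b21, the 1 measured gene among them, had intensities of 31.8 in CKO 4OHT and 38.3 in control 4OHT, beside 30.8 in CKO EtOH and 36.4 in control EtOH. It differed by 0.05 and 0.07 with the drug in CKO and control cells. Klk1b genes are near-identical copies of each other, so the source of this signal is uncertain. Among the 3 genes on either side of the run, Siglece was under the minimum and Ctu1, next to Klk14, was at 0.14 in CKO cells and 0.12 in control cells. 2410002F23Rik, the third gene beyond Klk1, was at 1.02 in CKO cells and -0.23 in control cells.

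**Figure D3:**
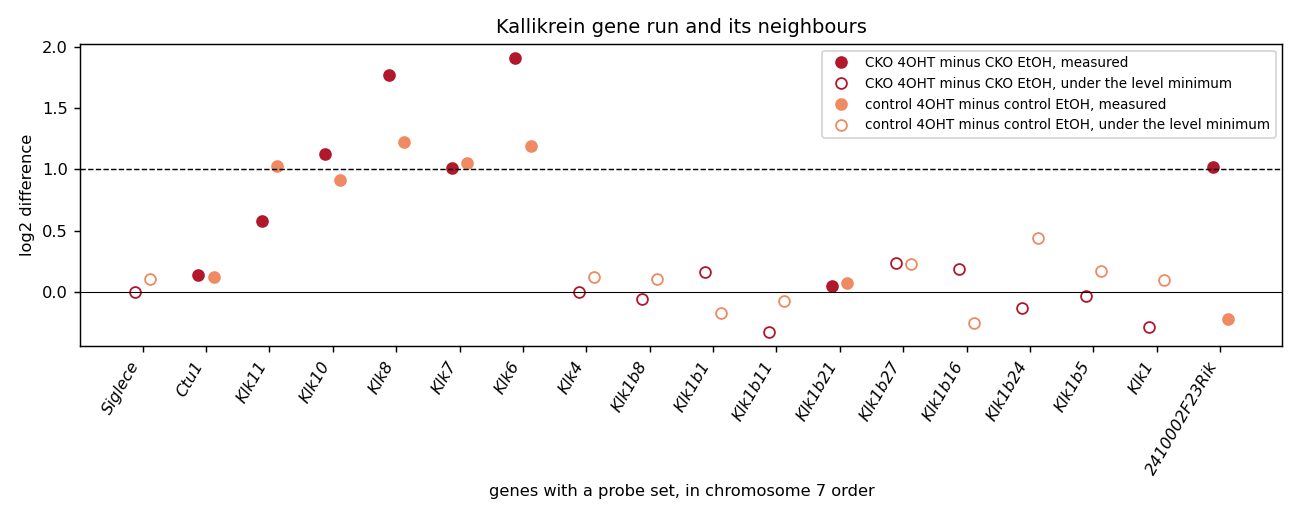
Log2 difference with 4OHT (vertical axis) in CKO cells (red) and control cells (orange) for the genes of the chromosome 7 run and its neighbours that have a probe set, in gene order. Open circles are genes under the level minimum on all arrays. The 5 kallikreins from Klk11 to Klk6, adjacent among the genes with a probe set, lie between 0.58 and 1.91. The filled points of Klk1b21 and Ctu1 lie between 0.05 and 0.14.

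Likeness between genes was measured as the root-mean-square distance of log2 values over the 4 arrays, each gene centred on its own mean. For Klk8 the closest of 7461 measured genes were Trex2, an exonuclease of keratinocytes (distance 0.051), Alox12b, a lipoxygenase of barrier ceramides (0.060), and Crct1, a cysteine-rich protein of the epidermal differentiation complex (0.086). For Klk7 they were Krt75, a hair follicle keratin (0.056), Klk10 (0.072) and Ankrd22 (0.074). Klk10 was closest to Ankrd22 (0.055), Sema3c, a secreted semaphorin (0.059), and Psapl1 (0.065). Klk11 was closest to Elovl4, which makes very long chain fatty acids (0.025), Dgat2, a triglyceride synthesis enzyme (0.043), and Mal2 (0.058). Klk6 had no gene as close, and its nearest were Defb4, a beta-defensin (0.196), Akr1c18, a steroid dehydrogenase (0.248), and Slc1a1, a glutamate transporter (0.272). Among the members the smallest distance was that between Klk7 and Klk10 and the largest that between Klk6 and Klk11 (0.720). The distance is not scaled by a gene's range, so it can be larger for a wide range alone. Of the members, the range was widest for Klk6 (6.20-fold) and narrowest for Klk11 (2.04-fold). With 4 arrays many genes lie close by, and these distances are descriptions.

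**Figure D4:**
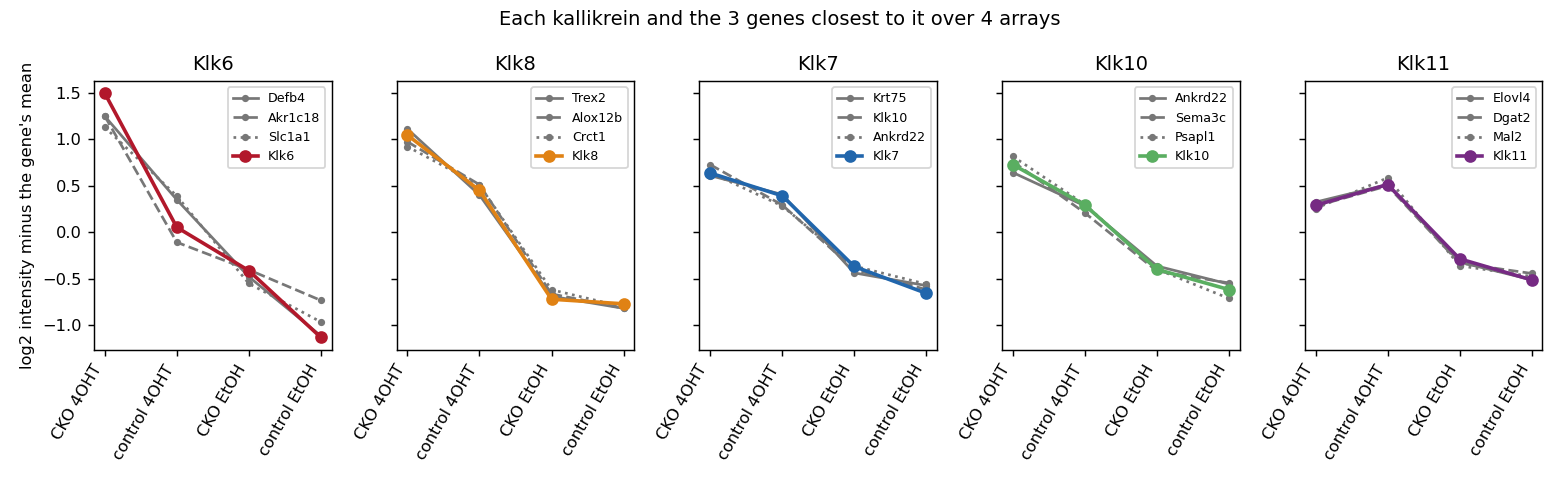
Log2 intensity minus the gene's own mean over 4 arrays (vertical axis) for each kallikrein (coloured) and the 3 measured genes closest to it (grey), 1 array per group. The grey lines almost cover the Klk11 line (distances 0.025 to 0.058) and stay off the Klk6 line (0.196 to 0.272). Distances are not scaled by a gene's range.

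Proteases that can activate kallikreins or act beside them on the cell surface had 1 gene past 2-fold. Of 15 listed, 12 had a probe set and 5 were measured. In CKO 4OHT against CKO EtOH 1 of these 5 was higher, against 1.78% of measured genes, and none lower, against 1.86%. Their median was 0.70, beside 0.01 for all measured genes. Prss22, a secreted tryptase, was the higher 1 (1.25), with 58.3 in CKO 4OHT against 24.5 in CKO EtOH. St14 (matriptase), which cuts the Klk5 and Klk7 precursors in skin lacking LEKTI, had 249 in CKO 4OHT against 129 in CKO EtOH (0.95). It had 172 in control 4OHT against 157 in control EtOH (0.13), so CKO EtOH was its lowest array. Prss8, a membrane-anchored protease that works with St14, was at 78.3 in CKO 4OHT against 49.9 in CKO EtOH (0.65). It was at 74.0 in control 4OHT against 53.2 in control EtOH (0.48). In CKO 4OHT against CKO EtOH, Tmprss4 was at 0.70 and Tmprss13 at 0.01. St14 and Prss8 are named for their known role after their values were seen, and Tmprss4 and Tmprss13 to complete the measured list. In the other 3 pairs none of the 5 reached 2-fold, with medians of 0.15 against control 4OHT, 0.48 for the drug in control cells and -0.06 between the EtOH arrays. In that order, 1.45%, 1.27% and 0.0536% of measured genes were higher and 2.24%, 0.241% and 0% lower. The medians over all measured genes were 0.01, -0.04 and -0.03.

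Protease inhibitors went in several directions. Of 30 listed, 20 had a probe set and 13 were measured. In CKO 4OHT against CKO EtOH 1 was higher and 1 lower, where 1.78% and 1.86% of measured genes were. In CKO 4OHT against control 4OHT 1 was higher and 3 lower, where 1.45% and 2.24% were. With the drug in control cells 3 were higher and none lower, where 1.27% and 0.241% were. Their medians in these pairs were 0.20, -0.23 and 0.50, beside 0.01, 0.01 and -0.04 for all measured genes. Cst6 (cystatin M/E), an inhibitor of epidermal cysteine proteases and not of kallikreins, was at 312 in CKO 4OHT and 92.8 in control 4OHT, beside 39.5 in CKO EtOH and 35.9 in control EtOH, the same order of groups as Klk6 and Klk8. Wfdc12, a small whey acidic protein domain inhibitor, was at 21.1 in CKO 4OHT and 108 in control 4OHT, beside 67.0 in CKO EtOH and 36.7 in control EtOH, so it was lowest where Klk6 was highest. Serpinb11, a clade B serpin, was at 50.4 in CKO 4OHT and 107 in control 4OHT, beside 48.5 in CKO EtOH and 31.7 in control EtOH. It differed by -1.08 from control 4OHT and by 0.06 from CKO EtOH. Serpina3n was at 13.0 in CKO 4OHT and 27.8 in control 4OHT (-1.09), close to the level minimum. Slpi, an inhibitor of neutrophil elastase and of chymotrypsin-like enzymes, was at 3127 in CKO 4OHT and 2099 in control 4OHT, beside 1655 in CKO EtOH and 1486 in control EtOH, and its difference from CKO EtOH was 0.92. Spint1 and Spint2, inhibitors of matriptase, stayed between -0.25 and 0.50 in all 4 pairs. Slpi, Spint1 and Spint2 are named for their roles, also after their values were seen.

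Of 10 listed corneodesmosome proteins that kallikreins cut and proteins of the same layer, 5 had a probe set and 4 were measured. With the drug in control cells 3 of the 4 were higher (Dsc1 at 1.86, Hrnr at 1.51 and Cdsn at 1.47), against 1.27% of measured genes, and none was lower. Dsc3, a desmocollin of the lower layers, was at 0.90, and the median was 1.49 beside -0.04 for all measured genes. In CKO 4OHT against CKO EtOH none was higher and Hrnr was lower (-1.43), where 1.78% and 1.86% of measured genes were. Cdsn was at 0.84, and the median was 0.08 beside 0.01 for all measured genes. Against control 4OHT, Hrnr (-3.10) and Dsc1 (-1.41) were lower, against 2.24% of measured genes, and none was higher, against 1.45%. The median was -0.98, beside 0.01 for all measured genes and 0.43 for the members. Cdsn (corneodesmosin) was at 383 in CKO 4OHT and 559 in control 4OHT, beside 213 in CKO EtOH and 201 in control EtOH, an order of groups shared with Klk11. Dsc1 (desmocollin-1) was at 25.2 in CKO 4OHT and 66.8 in control 4OHT, beside 28.6 in CKO EtOH and 18.5 in control EtOH. Hornerin (Hrnr), a filaggrin-like protein, was at 10.5 in CKO 4OHT and 89.6 in control 4OHT, beside 28.2 in CKO EtOH and 31.4 in control EtOH.

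Of 16 genes of the suprabasal and granular layers, the layers that make kallikreins, 12 had a probe set and 11 were measured. With the drug in control cells 3 were higher, against 1.27% of measured genes, and none lower, with a median of 0.75 beside -0.04 for all measured genes. These were Tgm1, an envelope crosslinking enzyme (1.51), Lypd3, a cell surface protein of suprabasal cells (1.13), and Krtdap, a secreted differentiation peptide (1.04). In CKO 4OHT against CKO EtOH Tgm1 was higher (1.56) and Krt1 lower (-3.23), where 1.78% and 1.86% of measured genes were. The median there was 0.01, beside 0.01 for all measured genes. Against control 4OHT, Krt1 (-3.50) and Tgm3 (-1.01) were lower, against 2.24% of measured genes, and none was higher, against 1.45%. The median was -0.31, beside 0.01 for all measured genes. Tgm1 was at 198 in CKO 4OHT and 180 in control 4OHT, beside 67.2 in CKO EtOH and 63.3 in control EtOH, the order of groups seen for Klk7.

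Other epidermal proteases included 7 measured of 10 listed cysteine and aspartic enzymes, with 9 having a probe set. Asprv1, the skin aspartic protease that processes filaggrin, was at 951 in CKO 4OHT and 982 in control 4OHT, beside 546 in CKO EtOH and 435 in control EtOH. It was the 1 gene of the list past 2-fold with the drug in control cells (1.17), where 1.27% of measured genes were higher. In CKO cells it was at 0.80. Ctsc, cathepsin C, which activates granule serine proteases of immune cells, was at 96.1 in CKO 4OHT against 243 to 258 elsewhere. It was the 1 lower gene in both pairs with CKO 4OHT (-1.43 and -1.37), where 1.86% and 2.24% of measured genes were lower. The list's medians were 0.54 against CKO EtOH, -0.05 against control 4OHT and 0.30 for the drug in control cells. Those over all measured genes were 0.01, 0.01 and -0.04.

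Of the receptors, F2rl1 was not analysed here. F2r, the thrombin receptor, was at 10.5 in CKO 4OHT and 18.5 in control 4OHT, beside 20.0 in CKO EtOH and 22.6 in control EtOH, near the level minimum. Tslp was at 47.7 in CKO 4OHT and 17.7 in control 4OHT, beside 19.9 in CKO EtOH and 28.3 in control EtOH. It was higher in CKO 4OHT against CKO EtOH (1.26) and control 4OHT (1.43), and at -0.67 with the drug in control cells, where the kallikreins were at 0.91 to 1.22.

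**Figure D5:**
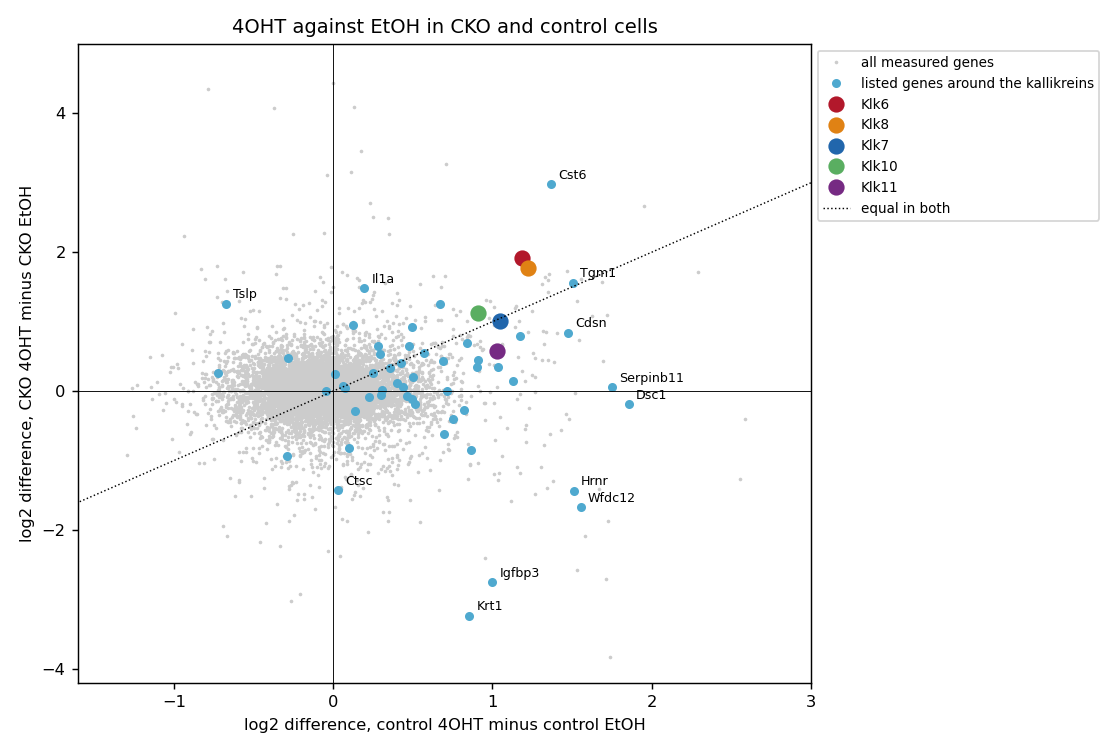
Log2 difference with 4OHT in CKO cells (vertical axis) against that in control cells (horizontal axis) for all 7461 measured genes (grey), the listed genes around the kallikreins (blue) and the 5 kallikreins (coloured), 1 array per group. The dotted line marks equal values. All 5 kallikreins lie right of 0.9 and above 0.5, Klk7 lies on the line, and Hrnr and Dsc1 lie far below it.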

How the data were processed

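The deposited table holds linear intensities of 22626 probe sets for each array, made by the authors with RMA per the submitters' processing notes, which corrects background, normalizes between arrays and summarises probes. The sources used here give neither the RMA version nor detection calls. The method draws arrays to similar distributions and compresses dim differences. Array medians lay between 19.95 and 20.22 and pairwise log2 correlations between 0.986 and 0.995, and no array was a copy of another. With Python tools (pandas 2.3.3, numpy 2.4.6), log2 was taken without a pseudocount. Gene names came from the platform annotation, updated through Entrez identifiers: 20380 probe sets name 1 gene, 691 several and 1555 none. A gene was represented by its brightest probe set (12393 genes) and counted as measured when its highest value reached the table's median, 20.04 (7461 genes). The members, the gene lists, the motifs and the tests were chosen with earlier results of these data known. Named genes were the members, Prdm1, Esr1, listed genes at least 2-fold different in a pair (the brightest where a list had none), the 3 genes most like each member, and the genes of the chromosome 7 run with 3 on either side. F2r, Tmprss4, Tmprss13, marker genes and genes named for a known role were added after their values were seen. Calls, likeness and motif searches were first tested on simulated data. The drug effect over both genotypes was tested with limma 3.58.1 on measured genes. Alternatives were other scalings, an offset, other filters, another probe set rule and a 1.5-fold threshold.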

Additional observations from a re-analysis of the deposited data

Results flagged for a closer look

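Of the listed genes around the kallikreins, 3 were at least 2-fold different with 4OHT in both genotypes but in opposite directions, lower in CKO cells and higher in control cells. They were picked by this rule, and the share of all measured genes that meet it was not counted. Taken singly, 1.86% of measured genes were at least 2-fold lower with 4OHT in CKO cells and 1.27% higher in control cells. Wfdc12, the whey acidic protein domain inhibitor, differed by -1.67 in CKO cells and 1.55 in control cells, a difference of drug effects of -3.22. Hrnr differed by -1.43 in CKO cells and 1.51 in control cells, a difference of -2.94. Igfbp3, a growth factor binding protein that kallikreins can cut, differed by -2.75 in CKO cells and 1.00 in control cells, a difference of -3.75. With 1 array per group these differences were not tested. No kallikrein had opposite signs in the genotypes. All 5 were higher with 4OHT in both, as were 22.8% of measured genes.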

How the results depend on the processing

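With genotype as a block, which pairs each 4OHT array with the EtOH array of its genotype, 0 of 5 members passed in limma after adjustment (adjusted p = 0.89), and 0 did without the block. No gene of the whole table passed in either fit. Of the other counts and medians of members, 77 of 84 values under 7 alternatives stayed within 1.5 times the count or within 0.1 log2 of the median. Each member had 1 probe set and passed the level minimum, so another probe set rule and no level filter could not change any member value. A stricter level minimum could only drop members. The tallies here and below include these settings, so part of the agreement was fixed in advance. With log2(value + 16), 2 members in place of 4 were called in CKO 4OHT minus CKO EtOH and the median there was 0.99. The share of measured genes called higher was then 1.07% in place of 1.78%. With a level minimum 4 times the median, which drops Klk11, the medians were 1.45 there and 0.38 for the difference of the drug effects. At 1.5-fold, 2 members were called in CKO 4OHT minus control 4OHT, 1 in CKO EtOH minus control EtOH and 1 for the difference of the drug effects, where 6.65%, 0.59% and 11.1% of measured genes were higher at that threshold. Of 145 single values of members, 4 were no longer past 2-fold and none changed sign: Klk7 in CKO 4OHT minus CKO EtOH under quantile normalization and with the offset (both 0.99), and with the offset Klk10 in that pair (0.96) and Klk11 in control 4OHT minus control EtOH (0.71). The offset shrinks differences of dim probe sets by construction. With 1 array per group, culture, animal and array cannot be told apart from the conditions.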

Other observations

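Other proteins that kallikreins have been reported to cut did not follow 1 direction. Of 15 listed, 14 had a probe set and 9 were measured, with medians of -0.06 for CKO 4OHT minus CKO EtOH, -0.17 for CKO 4OHT minus control 4OHT and 0.30 for control 4OHT minus control EtOH. Those over all measured genes were 0.01, 0.01 and -0.04. In that order 1, 1 and 1 of the 9 were higher, where 1.78%, 1.45% and 1.27% of measured genes were. Lower were 1, 2 and none, where 1.86%, 2.24% and 0.241% were. Between the EtOH arrays none differed 2-fold, where 0.0536% were higher and 0% lower. Il1a, an alarmin of keratinocytes, was at 36.9 in CKO 4OHT against 12.7 to 14.5 elsewhere, values under the level minimum. Il18, a cytokine stored as a precursor in keratinocytes, was at 142 in CKO 4OHT and 411 in control 4OHT, beside 255 in CKO EtOH and 225 in control EtOH, so that it differed by -1.54 from control 4OHT. Igfbp3 was at 99.9 in CKO 4OHT and 797 in control 4OHT, beside 672 in CKO EtOH and 399 in control EtOH. The remaining 6 (Cdh1, Fn1, L1cam, Mbp, Smpd1 and Tgfb1) stayed under 2-fold in all 4 pairs.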
